A study of Mus musculus with 5 samples.

Results

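Red blood cell genes were examined in CD11b+Gr1+ myeloid cells sorted from mouse lung, by 7 genes: Alas2, Slc4a1, Car1, Car2, Klf1, Ermap and Epb42. They were chosen by name, with earlier results of these data known. A gene was read from the probe set whose annotation gives that single symbol, which left 6 of the 7 genes, of 14807 genes in all, each with 1 probe set. Car1 had no such probe set and was not analysed here. The tumour-challenged group (2 arrays) consisted of wild-type mice that had received 5000000 LLC-RFP cells under the skin 9 days earlier. LLC is the mouse Lewis lung carcinoma line, here carrying a red fluorescent protein. The control group (3 arrays) consisted of wild-type mice without tumour. About 100000 cells were sorted from lung suspensions for each RNA sample, so the cells lay at a site away from the injected tumour. The labels do not say whether an array holds the cells of 1 mouse or of several, and the p-values then measure only the spread between these arrays.

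Erythroid cells arise in the bone marrow, and in mice also in the spleen, where erythropoietin and the factors GATA1 and KLF1 switch on haem synthesis, globins and the proteins of the red cell membrane. Red cells and their precursors carry neither CD11b nor Gr1 as defining markers, so their transcripts are not those for which this gate is set. Alas2 encodes the erythroid form of 5-aminolevulinate synthase, the first enzyme of haem synthesis. Slc4a1 encodes band 3, the anion exchanger of the red cell membrane, and Epb42 encodes the protein that helps to bind band 3 to the membrane skeleton. Car1 and Car2 encode carbonic anhydrases, which interconvert carbon dioxide and bicarbonate. Klf1 encodes the erythroid Krüppel-like factor, and Ermap an erythroid membrane protein of the immunoglobulin superfamily. Of these genes Car2 is the least restricted to red cells, since osteoclasts, kidney and gut epithelium use it too.

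The promoters of 4 of the genes could be matched to RefSeq sequences (GRCm38.p6, 250 bases before to 50 bases after the gene start). Those of Slc4a1, Car1 and Car2 could not. The 4 are shown because GATA1 is the factor common to the whole programme. Alas2 alone of the 4 was higher on both tumour-challenged arrays than on every control array, so no link between a word and the values can be read. Capitals mark matches to a GATA word on either strand. The words searched were AGATAA and its form ending in G (AGATAG), then TGATAA and its form ending in G (TGATAG). Each of the 4 holds 1 match, and 29.8% of the 32851 RefSeq mouse promoters of this length hold at least 1.
Alas2 promoter, chrX:150547167-150547466, plus strand: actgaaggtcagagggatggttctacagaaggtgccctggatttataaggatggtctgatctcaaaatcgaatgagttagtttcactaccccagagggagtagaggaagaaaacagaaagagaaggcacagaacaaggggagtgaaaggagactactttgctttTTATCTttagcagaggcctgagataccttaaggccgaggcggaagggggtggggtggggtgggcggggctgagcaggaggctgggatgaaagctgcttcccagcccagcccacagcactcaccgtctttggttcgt
Klf1 promoter, chr8:84901732-84902031, plus strand: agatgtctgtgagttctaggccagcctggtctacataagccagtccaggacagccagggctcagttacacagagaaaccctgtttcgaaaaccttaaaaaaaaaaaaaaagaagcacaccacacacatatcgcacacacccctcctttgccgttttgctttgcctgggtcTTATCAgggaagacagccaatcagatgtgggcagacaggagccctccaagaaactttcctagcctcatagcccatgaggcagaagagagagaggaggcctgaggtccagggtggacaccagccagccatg
Ermap promoter, chr4:119189946-119190245, minus strand: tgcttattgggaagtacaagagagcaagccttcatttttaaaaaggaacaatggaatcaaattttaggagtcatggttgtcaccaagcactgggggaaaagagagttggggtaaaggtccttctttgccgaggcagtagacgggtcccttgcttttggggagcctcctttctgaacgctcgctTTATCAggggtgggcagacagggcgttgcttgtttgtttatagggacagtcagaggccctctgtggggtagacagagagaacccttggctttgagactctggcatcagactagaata
Epb42 promoter, chr2:121036828-121037127, minus strand: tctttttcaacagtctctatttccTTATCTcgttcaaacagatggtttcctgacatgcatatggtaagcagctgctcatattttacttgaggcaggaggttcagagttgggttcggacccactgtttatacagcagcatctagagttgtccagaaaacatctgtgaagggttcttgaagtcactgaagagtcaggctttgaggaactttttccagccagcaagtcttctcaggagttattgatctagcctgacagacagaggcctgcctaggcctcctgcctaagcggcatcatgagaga
All 4 matches read on the strand opposite to the gene, as TTATCT in Alas2 and Epb42 and as TTATCA in Klf1 and Ermap. The match began 86 bases before the gene start in Alas2, 80 bases before it in Klf1, 67 bases before it in Ermap and 226 bases before it in Epb42. The word CCNCNCCC, a form of the CACCC box that KLF1 binds, was searched on both strands and had 4 matches in Alas2, of which some overlap, and no match in the other 3 windows. At least 1 match is held by 49.5% of all promoters of this length. A match is a run of letters and not a measured binding site.

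Alas2, Slc4a1 and Car2 were higher on both tumour-challenged arrays than on every control array, by 1.78-fold, 1.45-fold and 2.13-fold between group means. Epb42, Ermap and Klf1 had small positive differences and overlapping arrays. None of the 6 passed limma's test with Benjamini-Hochberg adjustment across the whole table, which called 0 of 16661 probe sets higher and 0 lower, with a smallest adjusted p of 0.495. At an unadjusted p under 0.05 the same test counted 597 probe sets higher (3.58%) and 493 lower (2.96%), and Alas2, Slc4a1 and Car2 were among the 597. All 6 differences were positive, where 57.6% of all probe sets had a positive difference. The arrays were separate and higher for 3 of the 6, where this held for 11.2% of all probe sets. The median difference was 0.34 log2 for the 6 genes and 0.02 log2 over all probe sets. The 6 genes were chosen with earlier results of these data known, so these comparisons describe them and are not a test.

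Values are log2 RMA expression values, which place each probe set on a brightness scale that is comparable between arrays and only roughly between genes. As a guide to what an unexpressed gene gives on these arrays, the 835 probe sets of smell, pheromone and taste receptors had a 95th percentile of 6.89 in their mean value, which is called the background level here. By group means, 3 of the 6 genes lay above that level after tumour challenge and 0 of 6 in controls. Each fold given for Alas2, Slc4a1 and Car2 is thus against a group mean under that level. The median of all probe sets, at 6.77 to 6.88, was also under it on every array, so a place under the level is common. The level is a rough guide, since 5 of the 6 genes lay above the 75th percentile of the receptors (5.81) in both groups.

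Alas2 (probe set 7014503) stood at 7.31 and 7.28 on the tumour-challenged arrays, against 6.57, 6.68 and 6.13 on the control arrays. The tumour-challenged arrays were nearly equal, and the controls lay lower and further apart, with control replicate 3 lowest. The means were 7.29 ± 0.02 (SD, n = 2) after tumour challenge and 6.46 ± 0.29 (SD, n = 3) in controls. The log2 difference was 0.84 ± 0.19 (SE), with a 95% interval of 0.33 to 1.34 and a limma adjusted p of 0.620. Without control replicate 3 it was 0.67. The gap between the lower tumour-challenged and the highest control array was 0.60 log2.

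Slc4a1 (probe set 6791561) stood at 7.26 and 7.38 after tumour challenge, against 6.77, 6.94 and 6.64 in controls. Both tumour-challenged arrays were above all controls, with a gap of 0.32 log2. Means of 7.32 ± 0.08 (SD, n = 2) after tumour challenge and 6.78 ± 0.15 (SD, n = 3) in controls gave a log2 difference of 0.54 ± 0.11 (SE), with a 95% interval of 0.24 to 0.84 and a limma adjusted p of 0.586. Its partner at the membrane did not share that separation. Epb42 (probe set 6890356) stood at 6.39 and 6.21 after tumour challenge, against 6.14, 6.07 and 6.27 in controls, and control replicate 3 lay above tumour-challenged replicate 2. The log2 difference of Epb42 was 0.14 ± 0.095 (SE), with a 95% interval of -0.12 to 0.39 and a limma adjusted p of 0.843.

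Car2 (probe set 6895856) had the largest difference of the 6 genes, and ranked 14 from the top among all probe sets. It stood at 7.36 and 7.59 after tumour challenge, against 6.54, 6.66 and 5.96 in controls. The groups were 0.71 log2 apart at their nearest arrays, and the controls again had replicate 3 lowest. Means of 7.48 ± 0.16 (SD, n = 2) after tumour challenge and 6.39 ± 0.38 (SD, n = 3) in controls gave a log2 difference of 1.09 ± 0.25 (SE), with a 95% interval of 0.43 to 1.76 and a limma adjusted p of 0.631. Car2 was the 1 gene of the 6 to pass the submitters' 2-fold rule for higher group means, as 24 probe sets did (0.144%). Car2 did not meet the rule without control replicate 3, with a fold of 1.84, or without tumour-challenged replicate 2, with a fold of 1.97.

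Ermap (probe set 6924949) stood at 6.47 and 6.65 after tumour challenge, against 6.39, 6.51 and 6.40 in controls, and the groups overlapped. The log2 difference was 0.13 ± 0.085 (SE), with a 95% interval of -0.10 to 0.36 and a limma adjusted p of 0.842. Klf1 (probe set 6977772), which encodes the factor that activates many of the other genes in erythroid cells, was dimmest in value, at 5.63 and 5.84 after tumour challenge, against 5.69, 5.71 and 5.63 in controls. Tumour-challenged replicate 1 and control replicate 3 had the same Klf1 value. The Klf1 difference was 0.06 ± 0.085 (SE), with a 95% interval of -0.17 to 0.29 and a limma adjusted p of 0.901, and it was -0.044 without tumour-challenged replicate 2. The group means of Epb42, Ermap and Klf1 were under the background level after tumour challenge and in controls.

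**Figure D1:**
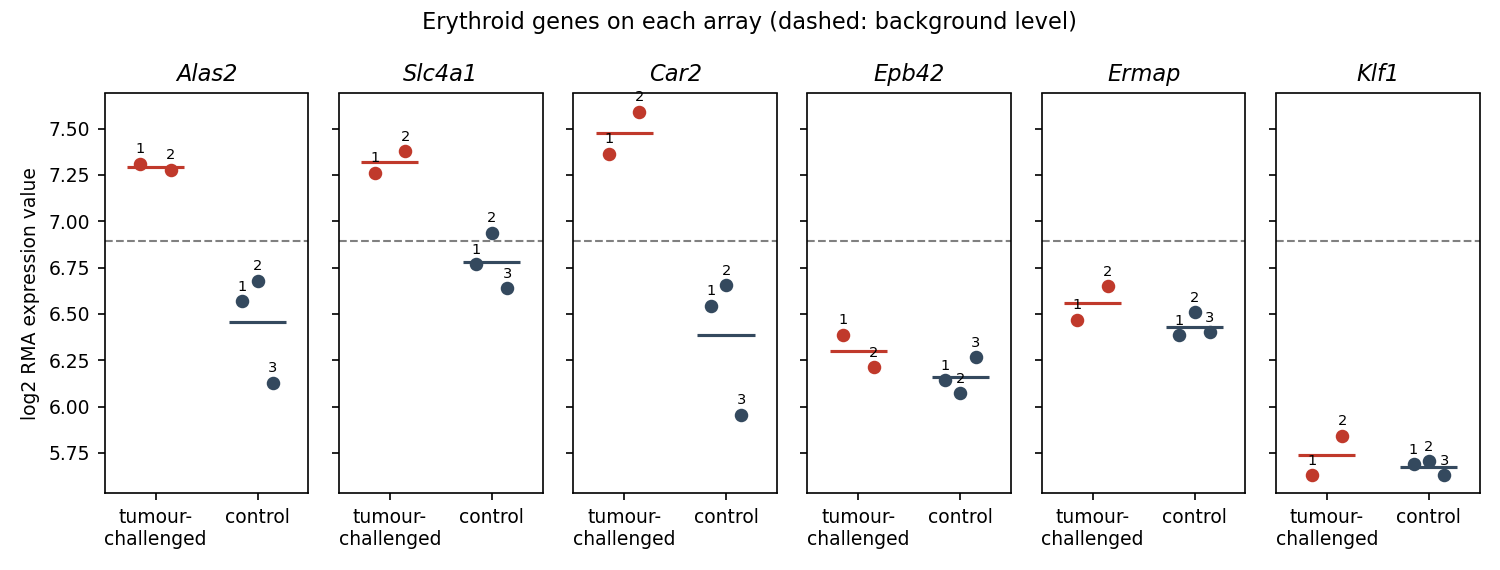
Log2 RMA expression value (vertical axis) of the 6 erythroid genes on each array, with tumour-challenged arrays left of control arrays in each panel. Points are arrays marked with their replicate number, bars are group means and the dashed line is the background level of 6.89. Alas2, Slc4a1 and Car2 lie above the line on both tumour-challenged arrays, and Epb42, Ermap and Klf1 lie below it on all 5 arrays.

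The profiles over the 5 arrays, each centred on its own mean, were compared by their root-mean-square distance. Alas2 and Car2 were 0.160 log2 apart, Alas2 and Slc4a1 0.185 log2 apart, and Alas2 and Klf1 0.418 log2 apart. Slc4a1, with the smallest difference of the 3 separate genes, was nearer to Ermap (0.212 log2) than to Car2 (0.316 log2). Klf1 and Ermap, both nearly flat, were 0.048 log2 apart. Each of the 6 genes had its highest value on a tumour-challenged array, and 4 of 6 had their lowest value on control replicate 3, counting the tie in Klf1. Leaving out each array in turn kept the Alas2 difference between 0.67 and 0.95, the Slc4a1 difference between 0.47 and 0.62 and the Car2 difference between 0.88 and 1.23. The smaller differences depended on single tumour-challenged arrays. Ermap was at 0.037 without replicate 2 and 0.22 without replicate 1, and Epb42 at 0.23 without replicate 2 and 0.052 without replicate 1. No adjusted p passed the threshold for any of the 6 genes with any array left out.

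**Figure D2:**
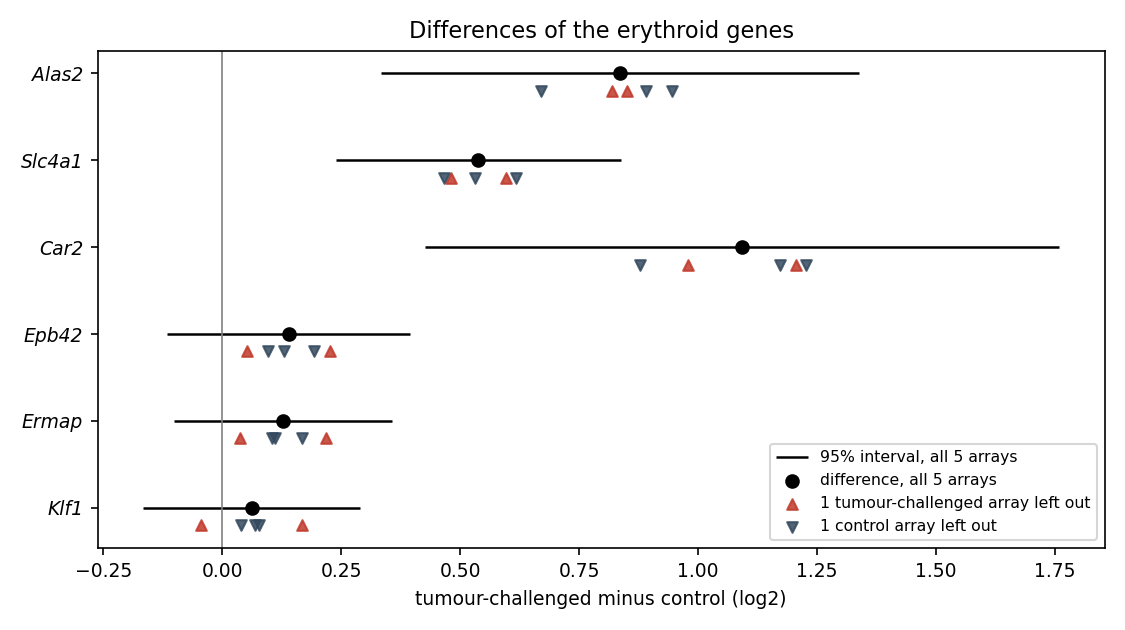
Log2 difference, tumour-challenged minus control (horizontal axis), of the 6 erythroid genes. Black points and lines are the difference and its 95% interval from all 5 arrays, and triangles are the differences with 1 array left out. The intervals of Alas2, Slc4a1 and Car2 lie above 0 before adjustment for the number of probe sets, and those of Epb42, Ermap and Klf1 include 0.

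Other genes of red cell development were read from 5 lists, on haem synthesis, globins, the red cell membrane, erythroid transcription factors and the enzymes of red cells and reticulocytes. Outside the 6 genes above, 61 of the 77 genes on these lists were measured, and 0 passed the limma test. Of the 61, 18 had a negative difference and 43 were counted as positive (70.5%, against 57.6% of all probe sets, counted in the same way). The 43 include Add2, whose value was the same on all 5 arrays, a difference of 0. Separate and higher were 16 (26.2%, against 11.2% of all probe sets), and separate and lower 0 (against 7.83%). The lists were chosen with earlier results of these data known, so these shares are not a test. The median difference of the 61 genes was 0.10 log2, and 0.05 log2 without control replicate 3. The mean over the 61 genes stood at 7.47 and 7.35 after tumour challenge, against 7.37, 7.31 and 7.23 in controls. The upper quartile of the whole array stood at 8.23 and 7.96 after tumour challenge, against 7.90 to 8.09 in controls. Tumour-challenged replicate 1 was thus highest and control replicate 3 lowest both in these genes and in overall brightness. Under quantile normalization the median difference of the 61 genes was 0.063 log2, and under array median centring 0.071 log2. The part of overall brightness in the result was not tested further.

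In haem synthesis, 13 of the 15 measured genes, Alas2 included, had a positive difference (86.7%, against 57.6% of all probe sets). Of the 15, 10 were separate and higher (66.7%, against 11.2% of all probe sets). Both shares count a gap of any size. Abcb10, picked after its values were seen, was separate with tumour-challenged replicate 1 at 6.1835 and control replicate 3 at 6.1827. The list median was 0.20 log2, 0.15 log2 without control replicate 3 and 0.11 log2 under quantile normalization. Tmem14c, a mitochondrial protein that moves the haem precursor protoporphyrinogen, stood at 9.94 and 9.33 after tumour challenge, against 9.24, 9.02 and 9.05 in controls, a log2 difference of 0.53 ± 0.21 (SE, limma adjusted p = 0.761). Urod, uroporphyrinogen decarboxylase, stood at 8.33 and 7.98 after tumour challenge, against 7.84, 7.65 and 7.58 in controls, a difference of 0.46 ± 0.15 (SE, limma adjusted p = 0.717). For both genes tumour-challenged replicate 1 was well above replicate 2, and without it the differences were 0.23 and 0.29. Fech, ferrochelatase, which inserts iron into the finished ring, was picked after its values were seen and differed by 0.26 ± 0.08 (SE, limma adjusted p = 0.698). Most cells make haem, and Alas2 encodes the erythroid form of the first enzyme.

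Of the 20 measured membrane and surface genes 5 had a negative difference, and 15 were counted as positive (75%, against 57.6% of all probe sets). The 15 include Add2, which stood at 6.34 on all 5 arrays, a difference of 0. Separate and higher were 5, Slc4a1 among them (25%, against 11.2% of all probe sets). The list median was 0.12 log2, and 0.038 log2 without control replicate 3. Trim10, a RING finger protein needed in erythroid differentiation, stood at 6.67 and 6.76 after tumour challenge, against 6.40, 6.48 and 6.37 in controls. Rhag, the Rh-associated glycoprotein, picked after its values were seen, stood at 5.51 and 5.60 after tumour challenge, against 5.26, 5.36 and 5.28 in controls. Both tumour-challenged arrays lay above all controls for these genes, by small steps, with differences of 0.30 ± 0.07 and 0.26 ± 0.06 (SE, limma adjusted p of 0.620 and 0.648) and with both groups below the background level. Tfrc, the transferrin receptor that brings iron into dividing cells of many types, had a negative difference of -0.33 ± 0.22 (SE, limma adjusted p = 0.842) with overlapping arrays. It rested on tumour-challenged replicate 2, since it was -0.0069 without that array and -0.65 without replicate 1.

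Erythroid transcription factors had a median difference of 0.02 log2. With 1 array left out it ran from 0.0048 log2 without control replicate 3 to 0.073 log2 without control replicate 2. Of the 15 genes 9 were positive (60%, against 57.6% of all probe sets). Only Nfe2 was separate and higher (6.67% of the list, against 11.2% of all probe sets). Nfe2 encodes the p45 chain of NF-E2, which erythroid cells share with megakaryocytes. It stood at 8.63 and 8.56 after tumour challenge, against 8.17, 8.18 and 7.47 in controls, a difference of 0.66 ± 0.26 (SE, limma adjusted p = 0.762) that was 0.42 without control replicate 3. E2f2, a cell cycle factor, and Lyl1, a relative of Tal1, differed by 0.19 ± 0.12 and 0.16 ± 0.14 (SE). E2f2 was at 0.098 without control replicate 3, and Lyl1 at 0.011 without tumour-challenged replicate 1 and 0.32 without replicate 2. Gata1, given because it is the lineage's main factor and outside the naming rule, stood at 6.76 and 6.75 after tumour challenge, against 6.75, 6.78 and 6.46 in controls, with a difference of 0.09 ± 0.12 (SE, limma adjusted p = 0.896), under the background level on both sides of the comparison. Neither Gata1 nor Klf1 was separate between the groups.

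Erythropoietin signalling genes had 5 positive and 5 negative differences of 10, and 1 was separate and higher (10%, against 11.2% of all probe sets). Bcl2l1, which encodes the survival protein BCL-XL of late erythroblasts and of many other cells, was the 1 separate gene, at 7.27 and 7.29 after tumour challenge, against 6.90, 7.04 and 6.90 in controls, a difference of 0.33 ± 0.07 (SE, limma adjusted p = 0.586). Socs3 and Cish, feedback inhibitors of cytokine receptors, differed by 0.34 ± 0.45 and -0.29 ± 0.15 (SE) with overlapping arrays. With 1 tumour-challenged array left out, Socs3 ran from -0.30 without replicate 1 to 0.97 without replicate 2, and Cish from -0.46 without replicate 1 to -0.12 without replicate 2. The receptor gene Epor, outside the naming rule, differed by 0.02 ± 0.06 (SE), under the background level on both sides of the comparison. Of 13 genes of red cell enzymes and reticulocyte maturation, 10 had a positive difference (76.9%, against 57.6% of all probe sets). Separate and higher were 2 (15.4%, near the 11.2% of all probe sets). The list median was 0.18 log2, and 0.069 log2 without tumour-challenged replicate 1. Bpgm, which makes the 2,3-bisphosphoglycerate that loosens oxygen from haemoglobin, stood at 7.64 and 7.19 after tumour challenge, against 7.10, 7.07 and 6.46 in controls, and its difference of 0.54 ± 0.27 (SE, limma adjusted p = 0.810) was 0.31 without tumour-challenged replicate 1. Hagh, a glyoxalase, differed by 0.34 ± 0.22 (SE), and by 0.077 without the same array. Alox15, a lipoxygenase of reticulocytes and also of eosinophils and macrophages, differed by -0.44 ± 0.23 (SE), with control replicate 3 among the tumour-challenged values.

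**Figure D3:**
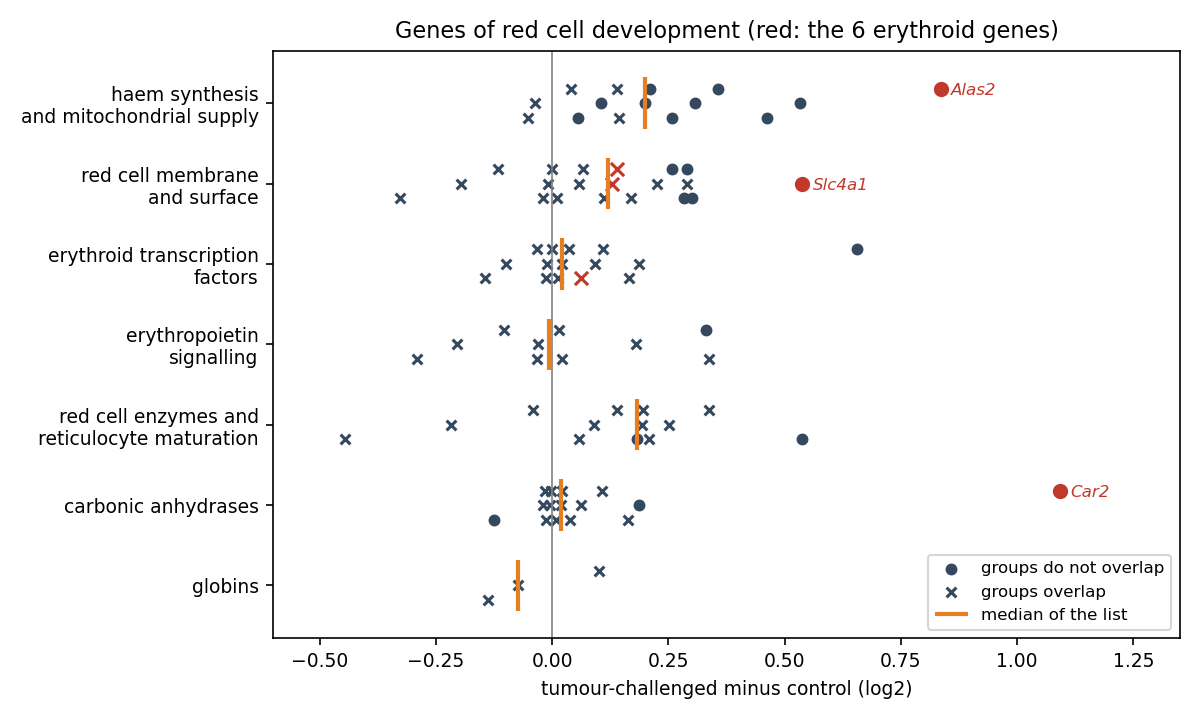
Log2 difference, tumour-challenged minus control (horizontal axis), of each measured gene in 7 lists. Filled points are genes whose groups do not overlap, crosses are genes whose groups overlap, red marks are the 6 erythroid genes and orange bars are list medians, which run from -0.07 for globins to 0.20 for haem synthesis. Car2 and Alas2 lie beyond the other genes plotted.

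Of the 12 globin and chaperone genes listed, 3 had a probe set with a single symbol, and the adult alpha and beta globin genes and Ahsp were not analysed here. The embryonic globins Hba-x and Hbb-y and the theta globin Hbq1a differed by -0.07 ± 0.15, 0.10 ± 0.12 and -0.14 ± 0.10 (SE), with overlapping arrays.

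Among 15 measured carbonic anhydrase genes Car2 had the largest difference. Car15 had the next largest, at 0.19 ± 0.09 (SE, limma adjusted p = 0.802), and Car8 followed at 0.16 ± 0.26 (SE). Car15 was at 0.087 without tumour-challenged replicate 1, and Car8 at -0.032 without control replicate 3. The median over the family was 0.02 log2. In the RefSeq gene order of GRCm38.p6, Car13, Car1, Car3 and Car2 follow each other on chromosome 3. The neighbours were outside the naming rule and are given for their position. Car3 stood at 5.79 and 5.83 after tumour challenge, against 5.73, 5.79 and 5.79 in controls, and differed by 0.04 ± 0.05 (SE). Car13 differed by 0.02 ± 0.26 (SE) with control replicate 1 highest. Both were under the background level on both sides of the comparison.

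Genes with profiles most like those of the 3 separate genes were found by the smallest root-mean-square distance over the 5 arrays among 14801 genes. For Alas2 these were Npr3, a natriuretic peptide clearance receptor (0.064 log2), Ndufs6, a subunit of respiratory complex I (0.090 log2), and Rwdd1 (0.100 log2). For Slc4a1 they were Cby1 (0.059 log2), Galnt6 (0.062 log2) and Dusp18 (0.064 log2). For Car2 they were Ndufs6 (0.156 log2), the metalloreductase gene Steap4 (0.194 log2) and Npr3 (0.203 log2). None of these is on the red cell lists. Ndufs6 averaged 11.01 ± 0.01 (SD, n = 2) after tumour challenge and 10.15 ± 0.35 (SD, n = 3) in controls, at 10.41, 10.27 and 9.75 on the control arrays, with the same low control replicate 3 as Alas2 and Car2.

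Markers of other cells were read in the same arrays, since RNA of a sorted pool does not tell fewer cells of a type from less RNA per cell. Platelet and megakaryocyte genes, the lineage nearest to red cells, had 9 of 14 genes measured. Of the 9, 6 were positive (66.7%, against 57.6% of all probe sets). Ppbp was separate and higher (11.1% of the list, against 11.2% of all probe sets). Clec1b was separate and lower, as were 7.83% of all probe sets. The mean level of the 9 genes stood at 7.85 and 7.38 after tumour challenge, against 7.46, 7.49 and 7.24 in controls. The platelet chemokine Pf4 stood at 8.63 and 7.17 after tumour challenge, against 6.76, 7.29 and 6.33 in controls, and Ppbp at 10.09 and 8.98, against 8.62, 8.74 and 8.23 in controls. Tumour-challenged replicate 1 was the high array for both chemokines. Alas2 was near equal on both tumour-challenged arrays, and Slc4a1 and Car2 were higher on replicate 2. Control replicate 3 was the lowest array for both chemokines, as it was for Alas2, Slc4a1 and Car2. Without tumour-challenged replicate 1 the differences of Pf4 and Ppbp were 0.38 and 0.45. Clec1b differed by -0.35 ± 0.12 (SE, limma adjusted p = 0.720), and by -0.19 without tumour-challenged replicate 2.

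Lung epithelial genes had 18 of 20 measured, 15 of them positive (83.3%, against 57.6% of all probe sets). Separate and higher were 6 (33.3%, against 11.2% of all probe sets). The list median was 0.30 log2, and 0.45 log2 without control replicate 2. The mean level of these genes stood at 8.22 and 8.16 after tumour challenge, against 7.69, 8.15 and 7.81 in controls. Control replicate 2 was the highest control here, near the tumour-challenged level. It was also the highest control in Alas2, Slc4a1 and Car2, at 6.68, 6.94 and 6.66, below both tumour-challenged arrays. Hopx, a gene of alveolar epithelium, stood at 8.25 and 7.90 after tumour challenge, against 7.43, 7.48 and 7.05 in controls, and the surfactant gene Sftpa1 and the phosphate transporter gene Slc34a2 differed by 0.89 ± 0.37 and 0.69 ± 0.27 (SE). B-cell genes were lower in 9 of 9 measured (0% positive, against 57.6% of all probe sets). Their mean level stood at 7.02 and 7.02 after tumour challenge, against 7.43, 7.66 and 7.47 in controls. Differences were -0.81 ± 0.16 for Fcer2a, -0.81 ± 0.19 for Ms4a1 and -0.70 ± 0.18 for Pax5 (SE). Endothelial genes had 5 positive and 9 negative differences of 14 (median -0.05 log2), with Emcn at -0.48 ± 0.24, Ramp2 at 0.36 ± 0.21 and Kdr at -0.19 ± 0.15 (SE). With 1 array left out these ran from -0.66 to -0.28 for Emcn (nearest 0 without control replicate 3), 0.17 to 0.55 for Ramp2 (lowest without tumour-challenged replicate 1) and -0.30 to -0.083 for Kdr (nearest 0 without control replicate 2), and the median was 0.051 log2 without control replicate 2. Genes of macrophages that recycle red cells had 4 positive and 4 negative differences of 8 (median -0.01 log2), with Spic at 0.52 ± 0.42, Adgre1 at 0.51 ± 0.21 and Siglec1 at -0.27 ± 0.17 (SE). Their median ran from -0.099 log2 without control replicate 3 to 0.11 log2 without control replicate 1. Without tumour-challenged replicate 1 Spic was at -0.11 and Adgre1 at 0.25, and Siglec1 was at -0.41 without control replicate 3. Genes of the sorted myeloid cells had 3 positive of 9 (median -0.08 log2), with Mpo at -0.75 ± 0.28, Mmp9 at 0.29 ± 0.18 and Csf3r at -0.22 ± 0.14 (SE). Without tumour-challenged replicate 2 Mpo was at -0.36 and Csf3r at -0.096, without replicate 1 they were at -1.13 and -0.33, and Mmp9 was at 0.12 without control replicate 3. The part of these cells in the values of Alas2, Slc4a1 and Car2 was not tested.

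**Figure D4:**
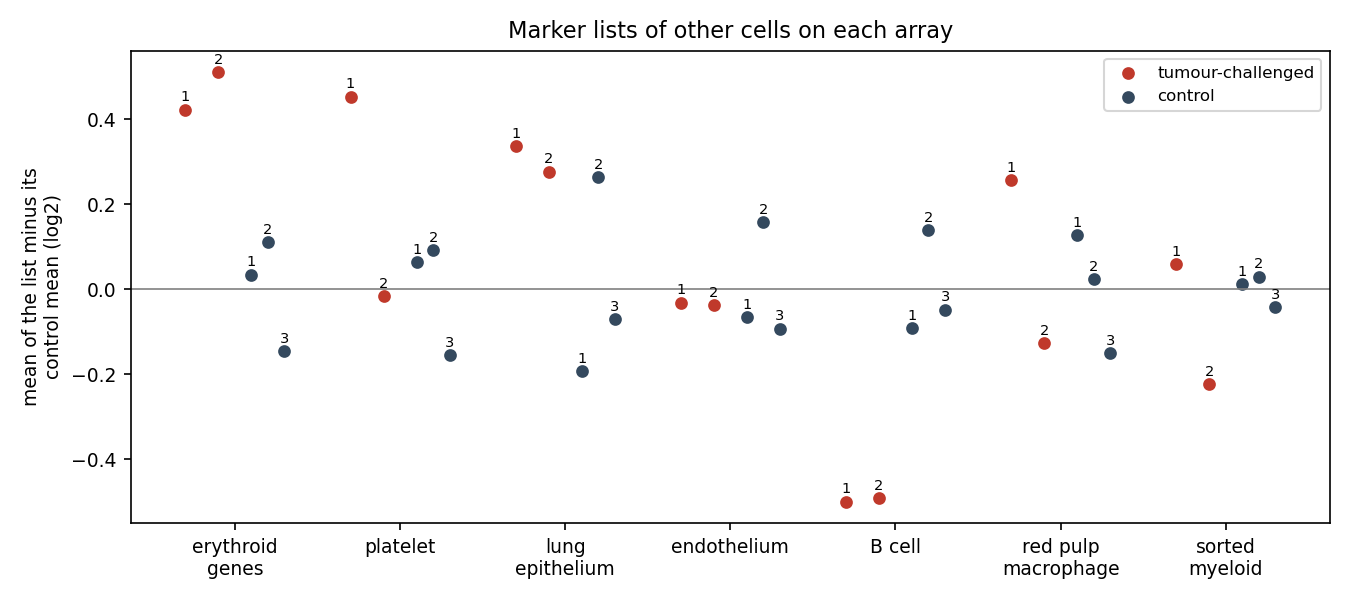
Mean of each marker list on each array minus the control mean of that list (vertical axis, log2), with tumour-challenged arrays left of control arrays. Numbers are replicates. The 6 erythroid genes had 0.42 and 0.51 on the tumour-challenged arrays, platelet genes had 0.45 on replicate 1 and -0.02 on replicate 2, and B-cell genes had -0.50 and -0.49.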

How the data were processed

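RNA of sorted lung CD11b+Gr1+ cells was amplified by a whole-transcript method and hybridised to 5 single-colour arrays, per the labels' protocols. The deposited table holds a log2 expression value for each probe set and array. Per the submitters' processing notes the tool was RMA. The sources used here do not state a version of RMA or a filter. The notes name the build mm8 without a role. Array medians ran from 6.77 to 6.88, and the small number of arrays limits the precision.

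Of 16661 probe sets 14939 carry 1 gene symbol, 989 several (not named) and 733 none here. Symbols were updated by gene number for 14884. The brightest probe set stood for a gene. All probe sets were fitted with limma 3.58.1 in R 4.3.3, tumour-challenged minus control, two-sided, with 3 residual and 1.36 prior degrees of freedom, Benjamini-Hochberg adjustment and a threshold of 0.05. The fit was tested on simulated data. The members and lists were chosen with earlier results of these data known. Named were the 6 genes, up to 3 genes of each list with the largest absolute difference, and the 3 nearest profiles of each gene above background. Other genes are marked in the text. The background level was read from chemosensory receptor probe sets. Alternatives were quantile normalization, median centring, trend with robust variances, leaving out the dimmest 25% of probe sets, each array left out, and the replicate number as a block. Each gene had 1 probe set, so other probe sets could not be tried. Promoters are RefSeq, GRCm38.p6.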

Additional observations from a re-analysis of the deposited data

How the results depend on the processing

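No alternative moved Alas2, Slc4a1, Car2, Ermap or Epb42 to a negative difference or any of the 6 erythroid genes past the adjusted threshold. Klf1 ran from -0.044 without tumour-challenged replicate 2 to 0.17 without replicate 1. Median centring called 1 probe set higher over all, none of the 6. Under quantile normalization 2060 probe sets were separate and lower. The medians of haem synthesis, red cell enzyme, membrane and sorted myeloid genes were then 0.11, 0.11, 0.075 and -0.028. Without the dimmest 25% of probe sets, which drops Klf1, the medians of the 5 remaining genes and of membrane genes were 0.54 and 0.067. With the 75th percentile of receptor probe sets (5.81) as background, 5 of the 6 genes lay above it in both groups. With 1 array left out, the 2-fold rule took 0 to 1 of the 6 genes, 17 to 57 probe sets higher and 23 to 75 lower. Separate and higher were 3 to 5 of the 6 genes and 2348 to 6218 probe sets, and separate and lower 1843 to 4246. Fewer arrays separate more easily by construction, and a lone tumour-challenged array is assumed to vary like the controls. List medians then ran from -0.17 to 0.051 for globins, 0.038 to 0.14 for membrane, -0.096 to 0.099 for platelet, 0.069 to 0.25 for red cell enzyme, -0.099 to 0.11 for red pulp macrophage, -0.14 to 0.051 for endothelial, -0.088 to 0.030 for erythropoietin signalling, -0.011 to 0.047 for carbonic anhydrase, 0.0048 to 0.073 for transcription factor and -0.22 to 0.037 for sorted myeloid genes. Differences that turned sign ran from -0.17 to 0.051 for Hba-x, -0.032 to 0.36 for Car8, -0.021 to 0.22 for Hbb-y, -0.30 to 0.97 for Socs3 and -0.11 to 1.15 for Spic. The labels state nothing shared by same-numbered arrays beyond the number. Correlations of their deviations from the group means were 0.285 and 0.222. With 2 tumour-challenged arrays, the deviation of 1 is that of the other with its sign turned, so these correlations are not independent. Whether same-numbered arrays share a run or a pairing is not known. With the replicate block, which uses replicates 1 and 2 of each group, 0 probe sets passed, Car2 was at 0.88 and 0 of the 6 genes met the 2-fold rule, Alas2 was at 0.67 and Slc4a1 at 0.47, the medians of globin, membrane and sorted myeloid genes were 0.051, 0.038 and -0.026, and Hba-x and Car8 were at 0.051 and -0.032. The cause of these moves was not tested.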
